A study of Mus musculus with 19 samples.

Results

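Genes of the amino acid stress response were followed in mouse organoids by their rows in the deposited lists of translated open reading frames (ORFs). The members were Atf4, Cth, Shmt2 and Eif4ebp1, 4 of the 7266 genes that those lists pair with transcripts. The study set organoids of alveolar type 2 (AT2) cells, the surfactant-making cells of the lung alveolus, against lung adenocarcinoma (LUAD) organoids, to compare what the 2 kinds translate. Both kinds were of strain C57BL/6, grown in lung organoid medium, kept for 48 hours on plates washed with matrigel and given 100 µM cycloheximide, which stalls elongating ribosomes, for 5 minutes before harvest. No tumour genotype is given beyond the name KP on the LUAD samples of the ORF lists. Ribosome footprints, the RNA fragments that ribosomes shield, came from 3 AT2 and 4 LUAD libraries made by RiboLace, a pull-down of translating ribosomes. RNA came from 3 AT2 and 4 LUAD libraries, and ORF lists from 2 AT2 and 3 LUAD samples, described as 2 independent AT2 cultures and 3 independent tumour-derived organoids. Whether each footprint or RNA library is its own culture is not stated, and a p-value here sets a difference against library-to-library spread alone, which may be technical.

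ATF4 is a leucine zipper transcription factor of the integrated stress response. Kinases that sense missing amino acids, unfolded protein, haem deficiency or viral RNA phosphorylate the initiation factor eIF2, which slows most initiation but lets ribosomes pass the inhibitory upstream ORFs of the Atf4 mRNA and reach its coding sequence. The 3 other genes are known ATF4 targets. Cth encodes cystathionine gamma-lyase, which makes cysteine at the end of transsulfuration. Shmt2 encodes the mitochondrial serine hydroxymethyltransferase that splits serine into glycine and a one-carbon unit. Eif4ebp1 encodes 4E-BP1, which binds the cap-binding protein eIF4E and blocks initiation until mTORC1 phosphorylates it.

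The 4 genes lie on 4 chromosomes of GRCm38.p6 (mm10). Atf4 (ENSMUSG00000042406.8) spans chr15:80255184-80257545 on the plus strand, and Eif4ebp1 (ENSMUSG00000031490.6) chr8:27260327-27275656 on the plus strand. Cth (ENSMUSG00000028179.12) spans chr3:157894248-157925081 and Shmt2 (ENSMUSG00000025403.5) chr10:127517123-127522444, both on the minus strand. Because RNA of all 4 genes was higher in LUAD, the 250 bases before the annotated start are shown for the 2 genes matched in the RefSeq promoter table (GRCm38.p6), Atf4 at chr15:80254934-80255183 on the plus strand and Shmt2 at chr10:127522445-127522694 on the minus strand. Each is written 5′ to 3′ on the strand of its gene, in lower case, with motif matches in capitals.
Atf4: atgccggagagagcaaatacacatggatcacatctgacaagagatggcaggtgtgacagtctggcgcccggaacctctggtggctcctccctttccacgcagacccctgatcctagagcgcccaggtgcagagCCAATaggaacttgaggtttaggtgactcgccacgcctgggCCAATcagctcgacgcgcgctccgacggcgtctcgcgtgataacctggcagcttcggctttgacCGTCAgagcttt
Shmt2: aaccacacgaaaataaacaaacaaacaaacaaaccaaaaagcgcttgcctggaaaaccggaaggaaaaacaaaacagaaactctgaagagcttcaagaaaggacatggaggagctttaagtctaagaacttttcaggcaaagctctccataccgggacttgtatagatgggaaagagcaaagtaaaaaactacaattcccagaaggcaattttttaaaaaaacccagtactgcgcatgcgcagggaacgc
Both strands were searched for TGATGNAA (the core of the C/EBP-ATF response element through which ATF4 acts), TGACG (the half-site of CREB and ATF factors), CACGTG (the E-box), CCAAT (the box bound by NF-Y) and GGGCGG (the GC box). The Atf4 window held CCAAT on the forward strand at 117 to 113 and at 76 to 72 bases before the start, and TGACG in reverse at 12 to 8 bases before it. None of the 5 motifs was found in the Shmt2 window. Over 32851 promoter windows of the same length, 3.45% held TGATGNAA, 17.77% TGACG, 6.02% CACGTG, 33.85% CCAAT and 32.74% GGGCGG. The windows differed in base content, with 59.2% G and C for Atf4 and 40.8% for Shmt2.

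Libraries held 3.03 to 3.83 M estimated counts (M, 1000000 counts) for AT2 footprints, 4.80 to 14.25 M for LUAD footprints, 4.12 to 10.23 M for AT2 RNA and 27.18 to 33.20 M for LUAD RNA. AT2 footprint library 1 stood apart: Mettl26, a gene outside the stress lists, took 52.1% of its counts paired with genes, against a top gene at 1.1% to 4.1% in every other footprint library. Its 2.09 M paired counts were scaled to 1.12 M by TMM, and 1.0 M remained without Mettl26, so the CPM values (counts per 1000000 of the TMM-scaled size) are given here and the unscaled values beside the result they touch. The libraries also fell into 2 sets by their spread around the group means, whose first component held 64.4% of that spread in footprints and 57.3% in RNA. Set 1 held AT2 library 1 and LUAD libraries 1 and 2 in footprints, and AT2 libraries 1 and 2 and LUAD libraries 1 and 2 in RNA. The AT2 label was checked on 7 paired markers of 11 defined, whose summed footprint level was 1570 to 2950 CPM in AT2 and 289 to 401 CPM in LUAD libraries, although Slc34a2 had 0 counts in AT2 RNA. Markers of other cells were thinly covered: Bgn alone of 8 fibroblast genes and Cd14 and Mrc1 alone of 8 macrophage and leukocyte genes were paired, and none of 5 endothelial or 4 club and ciliated genes. In RNA, Bgn was at 0 to 1.55 CPM in AT2 and 198 to 412 CPM in LUAD libraries, and the 2 macrophage genes together at 6.78 to 19.4 and 150 to 200 CPM. Their part in the results was not tested.

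RNA of all 4 genes rose in LUAD, while footprints rose by the test for Cth alone. RNA of Atf4, Shmt2 and Eif4ebp1 rose by 2.07-, 3.32- and 2.65-fold (n = 3 and 4), and their footprints had fitted folds of 1.42, 1.57 and 1.18 that did not pass. Cth RNA had no count in any AT2 library, and Cth footprints were 6.96-fold higher in LUAD. The protein-coding transcripts of all 4 genes were paired through LUAD lists alone, so transcripts listed in LUAD are favoured for each of them. The test was edgeR's quasi-likelihood test with Benjamini-Hochberg adjustment over all genes tested, at an adjusted p of 0.05. In RNA 37.0% of the 6942 genes tested passed, 19.0% with LUAD higher and 18.0% with LUAD lower, and in footprints 21.3% of 6814, 9.47% and 11.8% in the same order. When library sizes were scaled over every transcript, the all-gene median of the log2 difference went from 0.036 to 0.201 in RNA and from -0.021 to 0.146 in footprints. It left all 4 RNA calls and the Cth footprint call in place, and changed the split of calls over all genes to 1795 higher of 2707 in RNA and 866 higher of 1478 in footprints, from 1322 of 2572 and 645 of 1448. In bulk samples, fewer cells of a kind and less RNA per cell cannot be told apart.

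**Figure D1:**
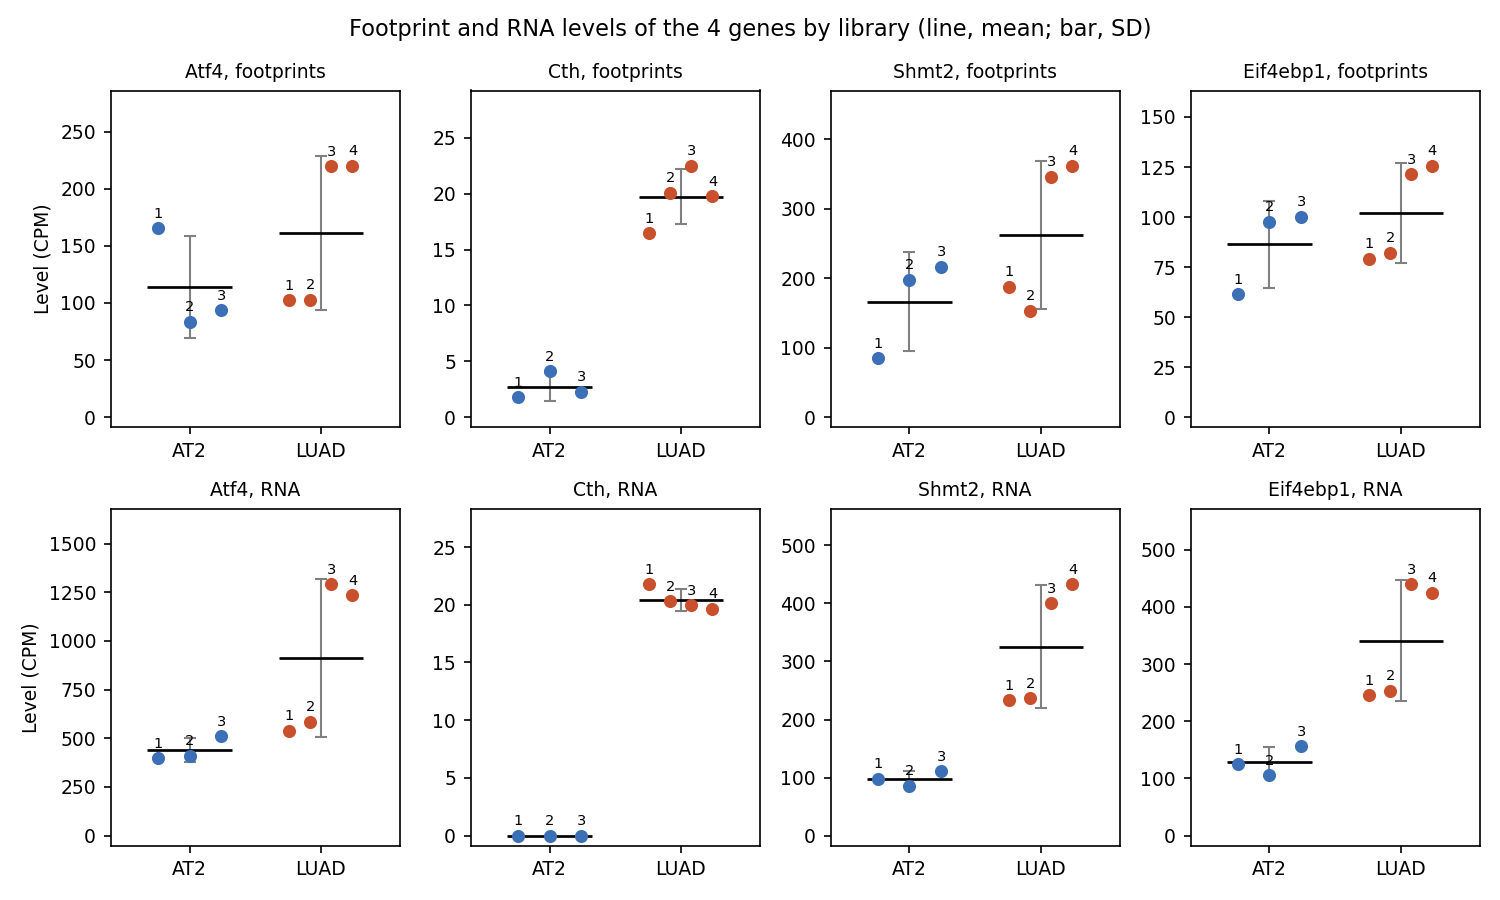
Level of the 4 genes (columns) in CPM in each footprint library (upper row) and RNA library (lower row), numbered as in the labels, with the mean as a line and the SD as a bar. In RNA every LUAD library lies above every AT2 library for each gene, and in footprints this holds for Cth alone; over all genes tested it holds for 24.3% in RNA and 18.4% in footprints.

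Atf4 RNA stood at 399, 410 and 511 CPM in AT2 libraries 1 to 3 and at 538, 586, 1291 and 1235 CPM in LUAD libraries 1 to 4. Every LUAD library was above every AT2 library, and LUAD libraries 3 and 4 were far above LUAD libraries 1 and 2. The mean went from 440 ± 61.8 to 913 ± 406 CPM (SD), a log2 difference of 1.05 ± 0.35 (SE, n = 3 and 4; edgeR adjusted p = 0.0442). The call did not hold without AT2 RNA library 1 or 2 (adjusted p = 0.135 and 0.133 by edgeR), without AT2 library 3 (0.05) or without LUAD library 3 or 4 (0.104 and 0.106). Within set 1 the log2 difference was 0.47 and within set 2, which holds a single AT2 RNA library, it was 1.28.

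Atf4 footprints stood at 165, 83.5 and 93.8 CPM in AT2 libraries 1 to 3 and at 102, 103, 220 and 220 CPM in LUAD libraries 1 to 4. AT2 library 1 lay above LUAD libraries 1 and 2, so the groups overlapped, and LUAD libraries 3 and 4 were again the high pair. The log2 difference was 0.51 ± 0.39 (SE, n = 3 and 4; edgeR adjusted p = 0.398). Within set 2 (2 libraries against 2) it was 1.31. Within set 1 it was -0.65, a value that rests on AT2 footprint library 1 alone, the library with the Mettl26 reads, and is given with no test. As CPM of the paired counts without TMM, the Atf4 footprint levels were 88.9, 82.8 and 94.2 in AT2 and 123, 124, 252 and 248 in LUAD. On that scale the size of AT2 library 1 includes its Mettl26 reads, 52.1% of its paired counts, which lowers its value. The groups did not overlap there, and the log2 difference was 1.07 (edgeR adjusted p = 0.0698). How many of all genes separate on this scale was not counted.

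Footprints and RNA of Atf4 were also spread over different transcripts. The coding transcript ENSMUST00000109605, of 1725 bases with 594 bases before the coding sequence, took 97.3% to 100.0% of Atf4 RNA counts in every library. Of the footprint counts it took 66.4%, 47.7% and 52.5% in the AT2 libraries and 78.8%, 89.0%, 81.7% and 78.8% in the LUAD libraries. These shares did not overlap, and how often shares separate in this way over all genes was not counted. The other large share went to ENSMUST00000229828, a model of 659 bases that stops inside the coding sequence and has 310 bases before it. It was given 5.5%, 51.3% and 40.6% of AT2 footprint counts and 9.2% to 21.2% of LUAD footprint counts, and 0 RNA counts in all 7 libraries. In AT2 library 1 the retained-intron transcript ENSMUST00000230434 took 28.1%. Fitted alone, ENSMUST00000109605 had a footprint log2 difference of 1.08 ± 0.48 (SE, n = 3 and 4; edgeR adjusted p = 0.246 over all transcripts tested), and an RNA difference of 1.17 ± 0.35 (0.0704). Reads that fit several transcripts were divided by estimation, so shares between overlapping transcripts are uncertain, and all footprint counts are per whole transcript and take in reads on upstream ORFs.

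**Figure D2:**
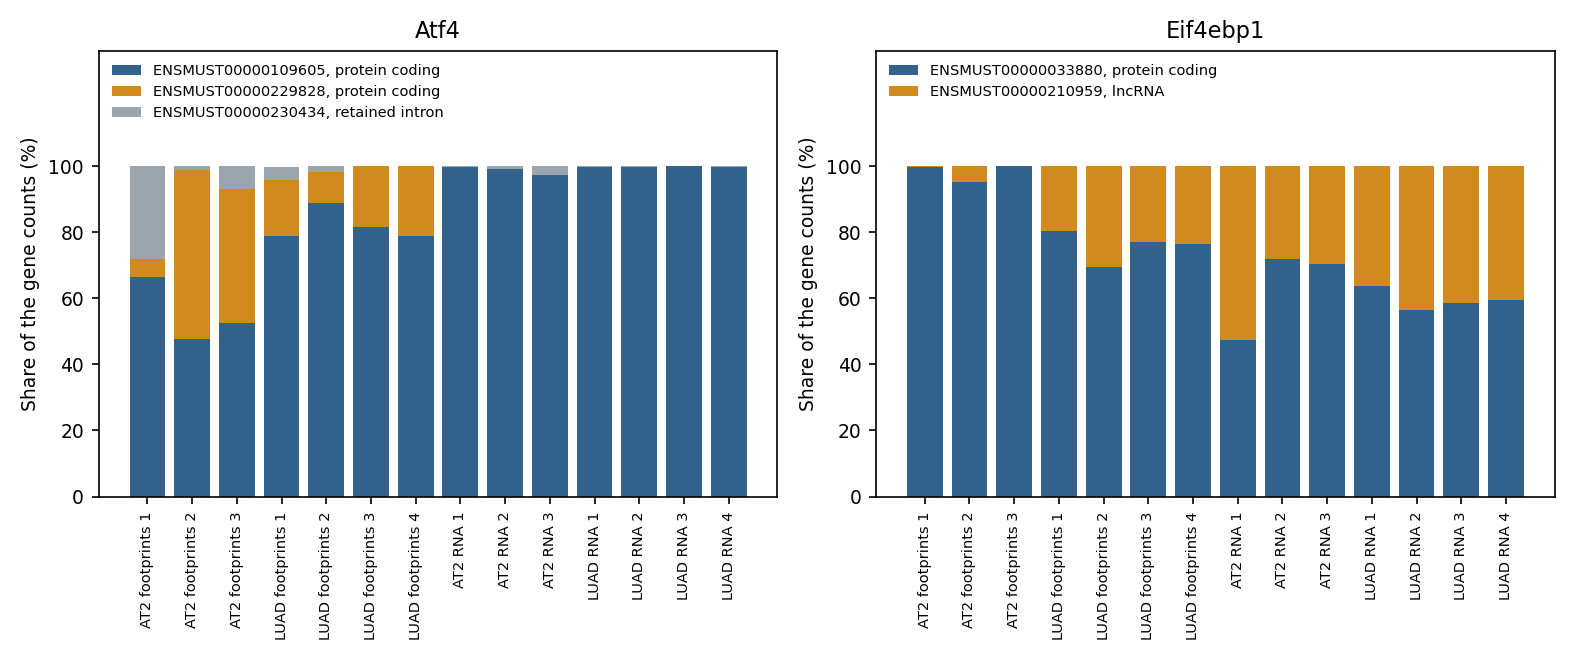
Share of the counts of Atf4 (left) and Eif4ebp1 (right) given to each paired transcript, in percent (bars stacked), for each footprint and RNA library. Atf4 RNA is almost wholly on ENSMUST00000109605 while AT2 footprint libraries 2 and 3 have 51.3% and 40.6% on ENSMUST00000229828, and Eif4ebp1 footprints on ENSMUST00000210959 are at most 4.7% in AT2 and 19.6% to 30.5% in LUAD.

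An upstream ORF that overlaps the Atf4 coding sequence, of the kind that holds back ATF4 synthesis, was listed as translated in 2 of the 3 LUAD lists and in neither AT2 list. It has 59 codons, runs from base 498 to base 677 of ENSMUST00000109605 and shares 83 bases with the coding sequence, which begins at base 595. The start codons are 97 bases apart, so the 2 are read in different frames. In the genome the ORF spans chr15:80255681-80256381, and the coding ORF of 349 codons spans chr15:80256299-80257460. LUAD list 1 gave the upstream ORF 378 P-sites (positions of the ribosome's peptidyl site), of which 46.0% were in frame (exact binomial 95% interval 40.9 to 51.2), and LUAD list 2 gave it 54, with 51.9% in frame (37.8 to 65.7). The coding ORF was listed in LUAD list 1 alone, with 535 P-sites, 46.7% in frame (42.4 to 51.1).

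In LUAD list 1 the upstream ORF carried 213.56 P-sites per 100 bases and the coding sequence 51.1, a ratio of 4.18 (95% counting interval 3.65 to 4.78). With in-frame P-sites alone the ratio was 4.12 (3.37 to 5.02). That list held 21 pairs of an upstream ORF of this kind and a coding ORF on the same transcript. Their median ratio was 0.88 (quartiles 0.66 and 1.85), and Atf4 had the highest. The coding sequence itself was not evenly covered, with 68.3 P-sites per 100 bases over its first 249 bases, where the upstream ORF ends, and 45.7 over the last 798. Those last 798 bases are listed as an ORF of their own on the retained-intron transcript, whose 266 residues equal the final 266 of the 349. It is the Atf4 ORF listed in AT2, with 31 P-sites in AT2 list 2 (48.4% in frame, exact interval 30.2 to 66.9). The value in the authors' deposited table for this ORF was 13.2 RPKM in AT2 list 2 and 20.7 RPKM in LUAD list 1. A further ORF of 92 codons in LUAD list 2, with 49 P-sites, shares its last 57 residues with the upstream ORF. Counting intervals cover counting error only, and a ratio within 1 sample has no replicate check.

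**Figure D3:**
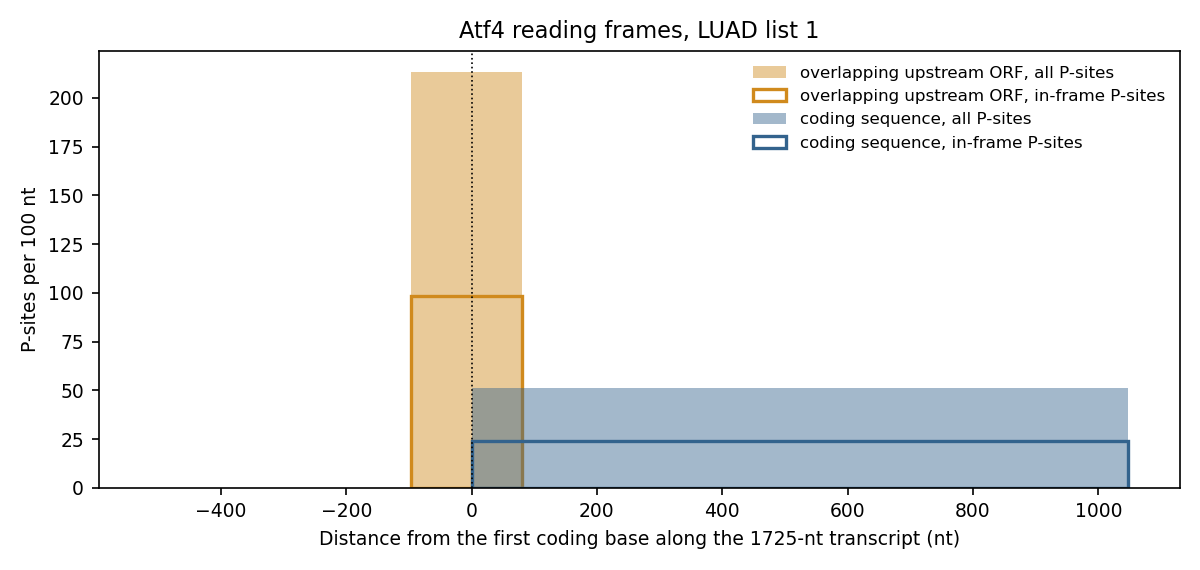
P-sites per 100 bases (filled, all P-sites; outlined, in-frame P-sites) over the upstream ORF and the coding sequence of Atf4 in LUAD list 1, against the distance in bases from the first coding base along ENSMUST00000109605. The upstream ORF stands at 213.56 and the coding sequence at 51.1 P-sites per 100 bases, and they overlap over 83 bases.

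The lists differed in depth, so an ORF missing from a list was not shown to be untranslated. The total implied by the RPKM values of the authors' deposited tables was 2.70 and 1.42 M for AT2 lists 1 and 2 and 11.82, 2.73 and 3.08 M for LUAD lists 1 to 3, with 2597, 4426, 13380, 8122 and 5372 distinct ORFs listed. For the 4 genes together 11 distinct ORFs were listed over all lists. LUAD list 1, the deepest, held 10 entries (3 of Atf4, 1 of Cth, 4 of Shmt2 and 2 of Eif4ebp1), LUAD list 2 held 4, LUAD list 3 held 0 and each AT2 list held 1. Without LUAD list 1, 6 of the 11 remained.

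Cth was the member with the clearest difference in both assays. Its footprint level was 1.78, 4.13 and 2.27 CPM in AT2 libraries 1 to 3 (18 counts in all) and 16.5, 20.1, 22.5 and 19.8 CPM in LUAD libraries 1 to 4 (739 counts). Every LUAD library was at least at 16.5 CPM and no AT2 library passed 4.13 CPM, and the LUAD libraries of both sets were alike, unlike those of Atf4. The log2 difference was 2.80 ± 0.44 (SE, n = 3 and 4; edgeR adjusted p = 0.00406), and it was 3.40 within set 1 and 2.73 within set 2. From the summed counts the ratio was 6.97 (exact 95% counting interval 4.38 to 11.8).

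Cth RNA had 0 counts in all 3 AT2 libraries. In LUAD libraries 1 to 4 it stood at 21.8, 20.3, 19.95 and 19.6 CPM, 1737 counts in all, the narrowest spread of the 4 genes. Against a floor of 3 counts over the AT2 group, which is 0.181 CPM, it was at least 114-fold higher in LUAD (edgeR adjusted p = 0.0002, n = 3 and 4). Only 1 transcript of Cth was paired, ENSMUST00000118539, and its pairing comes from LUAD list 1, where the coding ORF of 398 codons (chr3:157894819-157925030) had 50 P-sites, 56.0% in frame (exact interval 41.3 to 70.0). Its other transcripts were not analysed here, so reads on them would not be seen.

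Shmt2 RNA stood at 97.7, 85.9 and 111 CPM in AT2 libraries 1 to 3 and at 233, 236, 400 and 433 CPM in LUAD libraries 1 to 4. The groups did not overlap, and the lowest LUAD library was at over 2 times the highest AT2 library. The mean went from 98.2 ± 12.5 to 326 ± 106 CPM (SD), a log2 difference of 1.73 ± 0.28 (SE, n = 3 and 4; edgeR adjusted p = 0.00232). The call held in every alternative fit outside the library sets, with log2 differences from 1.52 to 1.89. The values were 1.35 within set 1 and 1.88 within set 2, which holds a single AT2 RNA library.

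Shmt2 footprints stood at 84.5, 198 and 216 CPM in AT2 and at 188, 153, 346 and 362 CPM in LUAD. LUAD libraries 1 and 2 lay below AT2 libraries 2 and 3, and LUAD libraries 3 and 4 above all AT2 libraries. The log2 difference was 0.65 ± 0.42 (SE, n = 3 and 4; edgeR adjusted p = 0.316). With the library set as a term it was 0.86 (edgeR adjusted p = 0.00133), and it was 1.05 within set 1, which holds a single AT2 footprint library, and 0.78 within set 2. As the sets come from how these same libraries vary, such fits are no independent support. Most Shmt2 footprints were assigned to ENSMUST00000219239, which took 98.6% to 100.0% in AT2 and 72.8% to 98.4% in LUAD. The second coding transcript, ENSMUST00000026470, was given 0 footprints in all AT2 libraries and in LUAD library 1. It was given 11.8%, 26.5% and 26.8% of them in LUAD libraries 2 to 4, and 64.7% to 94.1% of Shmt2 RNA counts in every library. The 2 coding ORFs share their last 490 residues and have the same 743 P-sites in LUAD list 1. The split of footprints between these transcripts is therefore uncertain. The coding ORF of 504 codons (chr10:127517789-127522320) had 743 P-sites in LUAD list 1 and 211 in LUAD list 2, with 44.5% and 41.7% in frame. LUAD list 1 also held an ORF of 61 codons inside the coding sequence, in another frame, with 81 P-sites and a p of 0.0341 in the authors' deposited table.

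Eif4ebp1 RNA stood at 125, 106 and 156 CPM in AT2 libraries 1 to 3 and at 246, 253, 440 and 425 CPM in LUAD libraries 1 to 4. As for Atf4 and Shmt2, LUAD libraries 3 and 4 were the high pair, and no AT2 library reached the lowest LUAD library. The log2 difference was 1.41 ± 0.28 (SE, n = 3 and 4, edgeR adjusted p = 0.00579). The call held in every alternative fit outside the library sets, with values from 1.24 to 1.57. The difference was 1.11 within set 1 and 1.44 within set 2, which holds a single AT2 RNA library.

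Eif4ebp1 footprints stood at 61.4, 97.6 and 100 CPM in AT2 and at 79.1, 82.1, 122 and 126 CPM in LUAD. LUAD libraries 1 and 2 lay between the AT2 libraries. The log2 difference was 0.23 ± 0.27 (SE, n = 3 and 4; edgeR adjusted p = 0.577). The footprint share of the transcript ENSMUST00000210959, which the lists type as lncRNA, differed between the groups without overlap. It had 0.1%, 4.7% and 0.0% of the gene's footprint counts in AT2 and 19.6%, 30.5%, 22.9% and 23.5% in LUAD. How often shares separate in this way over all genes was not counted. Its RNA shares did overlap, at 52.5%, 28.1% and 29.5% in AT2 and 36.3% to 43.6% in LUAD. With protein-coding transcripts alone the footprint difference was -0.15 (edgeR adjusted p = 0.769), and the coding transcript ENSMUST00000033880 had -0.04 ± 0.29 (0.968). RNA of both transcripts rose, by 1.42 for ENSMUST00000033880 (edgeR adjusted p = 0.0247 over transcripts) and 1.65 for ENSMUST00000210959 (0.0289). The ORF of 59 codons listed on ENSMUST00000210959 equals the last 59 of the 117 residues of 4E-BP1, so its reads are shared with the coding sequence. It had 14 P-sites in AT2 list 1 and 61 in LUAD list 1, where the full coding ORF (chr8:27260409-27275111) had 134.

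**Figure D4:**
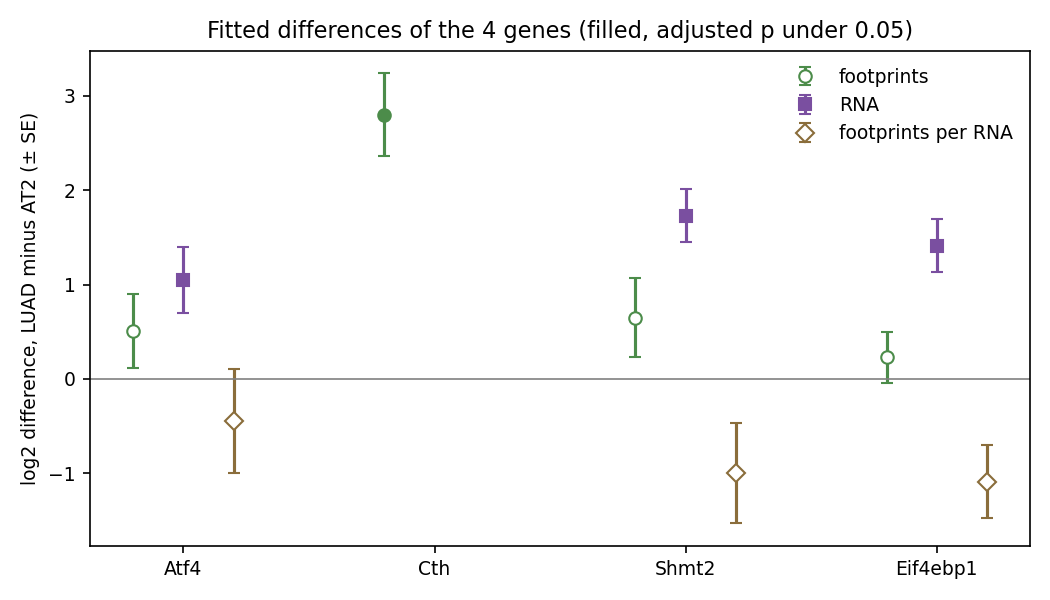
Fitted log2 difference, LUAD minus AT2, with its SE (bars) for each gene in footprints (circles), RNA (squares) and footprints per RNA (diamonds), filled where the edgeR adjusted p is under 0.05. RNA of Atf4, Shmt2 and Eif4ebp1 lies between 1.05 and 1.73 and their footprints between 0.23 and 0.65, and Cth is drawn for footprints alone since its AT2 RNA had 0 counts.

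Translational efficiency, the ratio of footprints to RNA, was tested by an interaction term between tissue and assay in a fit of all 14 libraries. In this test 51 of 7083 genes passed, 0.720% of them, 0.282% with LUAD higher and 0.438% with LUAD lower. Library sizes over every transcript gave 26 higher of 39 calls instead of 20 of 51, with the median over all genes moving from 0.009 to 0.281. The mean ratio of Atf4 was 0.26 in AT2 and 0.177 in LUAD, a log2 difference of -0.45 ± 0.55 (SE, n = 3 and 4 for each assay; edgeR adjusted p = 0.766). For Shmt2 it was 1.69 and 0.806 (-1.0 ± 0.53, adjusted p = 0.42), and for Eif4ebp1 0.67 and 0.299 (-1.09 ± 0.39, adjusted p = 0.218). None of these 3 passed, and a test that misses the threshold does not show equal ratios. On simulated counts it found 4% of the genes changed 2-fold and 41% of those changed 4-fold.

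Within the library sets these ratios rest on 1 AT2 library each, AT2 footprint library 1 in set 1 and AT2 RNA library 3 in set 2, so the values are given with no test. For Atf4 the log2 difference in the ratio was -1.17 within set 1 and 0.01 within set 2, for Shmt2 -0.36 and -1.13, and for Eif4ebp1 -0.73 and -1.15. With the set as a term Eif4ebp1 passed (-0.83, edgeR adjusted p = 0.00762), in a split drawn from the same libraries. Without TMM the ratio of Atf4 differed by 0.03 (edgeR adjusted p = 0.992).

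Cth passed the ratio test as lower in LUAD (edgeR adjusted p = 0.00855). The AT2 side of this ratio rests on 18 footprint counts over 0 RNA counts, and the LUAD ratio was 0.989 from the summed counts. With the RNA floor of 3 counts and the upper limit of the footprint interval, the ratio was at least 9.6-fold lower in LUAD. That bound covers counting error only and holds for the 1 paired transcript, ENSMUST00000118539. How the estimation divided reads between it and transcripts not paired here was not tested. The call did not hold without library 1, 2 or 3 of LUAD (edgeR adjusted p = 0.0616, 0.0816 and 0.0626) or in limma on log2(TPM + 1), where the adjusted p was 0.33. With 2, 10 and 6 footprint counts in AT2 libraries 1 to 3 and no RNA count, the AT2 ratio has no upper limit in these data.

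Levels were compared between the genes per length, on the TPM scale. In AT2 RNA the order was Atf4 (195 ± 5.49 TPM, SD, n = 3), Eif4ebp1 (82.2 ± 18.8), Shmt2 (32.4 ± 2.86) and Cth (0), and in LUAD RNA it was Atf4 (368 ± 126, n = 4), Eif4ebp1 (208 ± 43.0), Shmt2 (98.5 ± 22) and Cth (8.12 ± 1.25). The order of these gene sums was the same in both kinds and neighbours lay further apart than their SD. The Eif4ebp1 sum includes ENSMUST00000210959, a transcript of 798 bases typed as lncRNA. Its coding transcript ENSMUST00000033880 alone was at 24.9, 31.6 and 34.9 TPM in AT2 RNA, beside the Shmt2 mean of 32.4. In LUAD RNA it was at 61.8, 55.9, 81.2 and 83.1 TPM, beside 98.5, so the place of Eif4ebp1 above Shmt2 does not hold for coding transcripts. In LUAD footprints Atf4 (93.5 ± 35.6 TPM) and Shmt2 (91.4 ± 27.3) did not differ beyond their spread, above Eif4ebp1 (55.0 ± 8.38) and Cth (8.62 ± 0.994). In AT2 footprints Atf4 (51.2 ± 22 TPM), Shmt2 (46.5 ± 31.7) and Eif4ebp1 (26.7 ± 16.4) overlapped within their spread, with 1 transcript at 20.2% of all TPM in library 1, and Cth was at 0.92 ± 0.707 TPM.

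Shmt2 and Eif4ebp1 had the most alike patterns of the 4 genes. Likeness was the mean of Pearson's r of log2 CPM over the 7 footprint and over the 7 RNA libraries, among 6134 genes with a mean of at least 50 counts in both assays. These r are descriptions over libraries that share tissue, depth and library set. Shmt2 and Eif4ebp1 stood at r = 0.972 in footprints and 0.993 in RNA, and each was among the 4 genes most like the other, with Tuba4a, Nup107 and Plp2 for Shmt2 and Tuba4a, Psma7 and Fam111a for Eif4ebp1. Cth was most like Elf3, Lgals4, Cul1 and St3gal6 (mean r from 0.983 to 0.993). Atf4 was most like Cryzl1, Surf2, Heatr3 and Prps1 (mean r from 0.909 to 0.931). None of its 3 targets was among them: Atf4 and Shmt2 had r = 0.916 in RNA and 0.366 in footprints, Atf4 and Eif4ebp1 0.938 and 0.353, and Atf4 and Cth 0.71 and 0.358.

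The neighbouring steps of the pathway were described by 8 lists of 139 genes in all, of which 104 were paired. Over all lists 27 of 100 genes tested rose and 13 fell in RNA, and 4 rose and 8 fell in footprints, against 19.0% and 18.0% in RNA and 9.47% and 11.8% in footprints over all genes. The median log2 difference was 0.22 in RNA, against 0.04 for all genes, and 0.15 in footprints, against -0.02. Without AT2 RNA library 1 or 2 the RNA counts were 14 and 7, and 13 and 8. Without AT2 footprint library 1 the footprint counts were 5 and 13, without TMM they were 4 and 1, and in limma on log2(TPM + 1) 7 and 1. In footprints per RNA 0 of 102 passed in edgeR, 9 had an unadjusted p under 0.05 and 4 passed in DESeq2. The all-gene shares of 19.0% and 18.0% in RNA and 9.47% and 11.8% in footprints also stand beside the counts of each list below. Ddit3, Trib3 and Slc7a11 were not analysed here.

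Enzymes of serine, glycine and one-carbon metabolism, the pathway of Shmt2, rose in RNA in 8 of 12 genes tested and fell in 0, with a median log2 difference of 1.5 (also with Aldh1l1 at its bound) against 0.04 for all genes. In footprints 1 of 12 rose, with a median of 0.83 against -0.02. Phgdh, which opens serine synthesis, rose in RNA from 463 ± 154 to 1400 ± 274 CPM (SD, log2 difference 1.6 ± 0.26, edgeR adjusted p = 0.0025), and its footprints were at 622 ± 302 and 1290 ± 372 CPM (adjusted p = 0.11). RNA of Shmt1, the cytosolic counterpart of Shmt2, rose by 1.85 ± 0.32, and that of Mthfd2, a mitochondrial folate enzyme, by 1.43 ± 0.44 (edgeR adjusted p = 0.0343). Psat1, the second step of serine synthesis, did not pass (1.13 ± 0.54, adjusted p = 0.135). Aldh1l1, a cytosolic folate dehydrogenase, had 0 AT2 counts and was at least 72.9-fold higher in RNA and 21.7-fold higher in footprints. It could pass the count filter only through the LUAD libraries. It is among the 8 RNA rises and is the 1 footprint rise of this list. The RNA count fell to 4 of 12 without AT2 RNA library 1 or 2, where Mthfd2 was lost.

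Transsulfuration and other amino acid synthesis, the pathway of Cth, had 2 of 9 genes higher in RNA and 0 lower, a median of 0.00 against 0.04. RNA of Gclm, which acts in glutathione synthesis downstream of cysteine, rose from 10.4 ± 0.886 to 31.2 ± 9.91 CPM (SD). Gclm was paired through 1 transcript alone, typed as lncRNA, and its footprints were too few to be tested. RNA of Asns, the asparagine synthetase and an ATF4 target, rose by 0.88 ± 0.29 (SE, edgeR adjusted p = 0.0457), a call lost without AT2 library 1, 2 or 3 or LUAD library 3 or 4 (up to 0.144). In footprints 0 of 8 passed in edgeR, 1 had an unadjusted p under 0.05 and 1 passed in DESeq2. Cbs, the enzyme before Cth, had too few counts to be tested within either assay.

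The aminoacyl-tRNA synthetases, many of them known ATF4 targets, rose in RNA in 8 of 19 genes and fell in 0, with a median of 0.40. Farsb rose by 1.26 ± 0.27 (SE, edgeR adjusted p = 0.0084), Kars by 0.86 ± 0.22 and Vars by 0.70 ± 0.17. Without AT2 RNA library 1 or 2 a single synthetase passed, and Kars and Vars were among those lost. In footprints 0 rose and 1 fell, against 4 that fell without AT2 footprint library 1 and 0 without any other single library. The 1 was Yars, lower by a log2 difference of -0.94 (edgeR adjusted p = 0.0371), a call that held without AT2 footprint library 1 but in none of the 6 fits that left out another library, nor with protein-coding transcripts alone (0.786).

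The list of eIF2 kinases, subunits, exchange factor and related genes, among them Eif2a and Gcn1, had 3 higher and 2 lower of 14 in RNA. These were 21.4% and 14.3%, against 19.0% and 18.0% over all genes. In footprints the list had 1 higher and 0 lower of 15, which is 6.67% and 0.0%, against 9.47% and 11.8%. Eif2b2, a subunit of the exchange factor eIF2B, rose in both, by 0.92 ± 0.17 in RNA (edgeR adjusted p = 0.00416) and 1.15 ± 0.21 in footprints (0.00761, and 0.139 with protein-coding transcripts alone). RNA of Eif2s1, the subunit that the stress kinases phosphorylate, rose by 1.13 ± 0.28, a call lost without AT2 RNA library 1 or 2 (up to 0.0662), and RNA of Eif2a rose by 0.62 ± 0.14, with 0.45 and an adjusted p of 0.0745 by edgeR when protein-coding transcripts alone were used. RNA of Eif2ak3, the endoplasmic reticulum stress kinase PERK, fell from 121 ± 18.6 to 44.1 ± 18.7 CPM (SD; edgeR adjusted p = 0.011), and that of Gcn1, an activator of the amino acid sensor GCN2, had a log2 difference of -0.56 ± 0.18 (0.0427) that passed in 1 of 7 fits without a library, that without AT2 RNA library 3. Eif2ak4, which encodes GCN2, did not pass in RNA (0.41 ± 0.26) or footprints (0.12 ± 0.25). Phosphorylation of eIF2 was not measured.

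Partners of ATF4 and factors downstream of it had 4 higher and 2 lower of 10 in RNA, and 0 and 1 of 10 in footprints. RNA of Cebpb and Cebpd, C/EBP factors that pair with ATF4, rose by 1.2 ± 0.28 and 2.40 ± 0.32 (edgeR adjusted p = 0.0127 and 0.00106), and Fosl1 RNA rose from 0.517 ± 0.896 to 31.2 ± 22.8 CPM (SD, 4 AT2 counts in all), with footprints that did not pass (2.09 ± 1.37, SE, adjusted p = 0.323). Nfe2l2, the antioxidant factor NRF2, fell in RNA by 0.96 on the log2 scale (edgeR adjusted p = 0.00161) and in footprints by 0.70 (0.0462, held without AT2 footprint library 1 but in none of the 6 fits without another library, and 0.0552 with protein-coding transcripts alone). RNA of Nupr1, a stress-induced chromatin protein, fell by 1.28 (edgeR adjusted p = 0.041), lost without AT2 RNA library 1 or 2 or LUAD library 3 or 4 (up to 0.125).

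Stress output and feedback genes had 4 lower and 1 higher of 14 in RNA, and 4 and 0 of 14 in footprints, with medians of -0.06 and 0.00 near those of all genes (0.04 and -0.02). The footprint count was 2 lower in each fit without a library other than AT2 library 1 (with 2 higher without AT2 library 3), 1 lower and 1 higher in limma, and 1 and 0 without TMM. Sesn2, a leucine sensor that restrains mTORC1 and is induced by both ATF4 and p53, fell from 77.8 ± 8.11 to 6.61 ± 0.675 CPM in RNA and from 94.9 ± 31.0 to 7.34 ± 0.354 CPM in footprints (SD; edgeR adjusted p = 2.58e-05 and 0.000243). Ero1l, an oxidase of the endoplasmic reticulum, fell by 1.02 in RNA and 1.12 in footprints, and Clic4 by 1.35 and 0.94, the footprint call of Clic4 (edgeR adjusted p = 0.0333) being lost in 6 of 7 fits without a library, all but that without AT2 library 1. Stc2, a secreted glycoprotein of this response, rose in RNA from 2.20 ± 1.23 to 22.5 ± 10.2 CPM (adjusted p = 0.00305).

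Amino acid transporters had 0 higher and 1 lower of 9 in RNA, and 2 and 1 of 9 in footprints. Footprints of Slc38a2, a neutral amino acid carrier under ATF4 control, rose from 531 ± 22.8 to 1290 ± 89.6 CPM (SD, log2 difference 1.28 ± 0.17, edgeR adjusted p = 0.00203), with RNA at 0.46 ± 0.19 (0.0954) and a difference in the ratio of 0.90 ± 0.25 (0.122). Footprints of Slc7a1, an arginine and lysine carrier, rose by 1.17 ± 0.21. Slc38a1 fell in both, by 2.16 in RNA and 1.44 in footprints (edgeR adjusted p = 0.000321 and 0.00522).

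Cap-binding and mTORC1 genes, the setting of Eif4ebp1, had 1 higher and 4 lower of 13 in RNA and 0 and 1 of 13 in footprints, with RNA and footprint medians of -0.56 and -0.16. Mtor footprints fell from 116 ± 9.23 to 50.1 ± 6.77 CPM (SD, log2 difference -1.21 ± 0.18, edgeR adjusted p = 0.0036). Neither Mtor RNA (-0.83 ± 0.42, edgeR adjusted p = 0.147) nor the difference in its ratio (-0.30 ± 0.43, 0.816) passed. RNA of the scaffold gene Eif4g3 fell by 1.74, of the helicase gene Eif4a2 by 0.58 and of Tsc2, an mTORC1 inhibitor, by 1.22, while RNA of Rheb, an mTORC1 activator, rose by 0.98 ± 0.15. The calls of Eif4a2 and Tsc2 were lost without AT2 RNA library 1 or 2 (edgeR adjusted p up to 0.0738). Without TMM the footprint falls of Mtor, Slc38a1, Ero1l, Clic4, Nfe2l2 and Yars did not pass, and that of Sesn2 did.

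**Figure D5:**
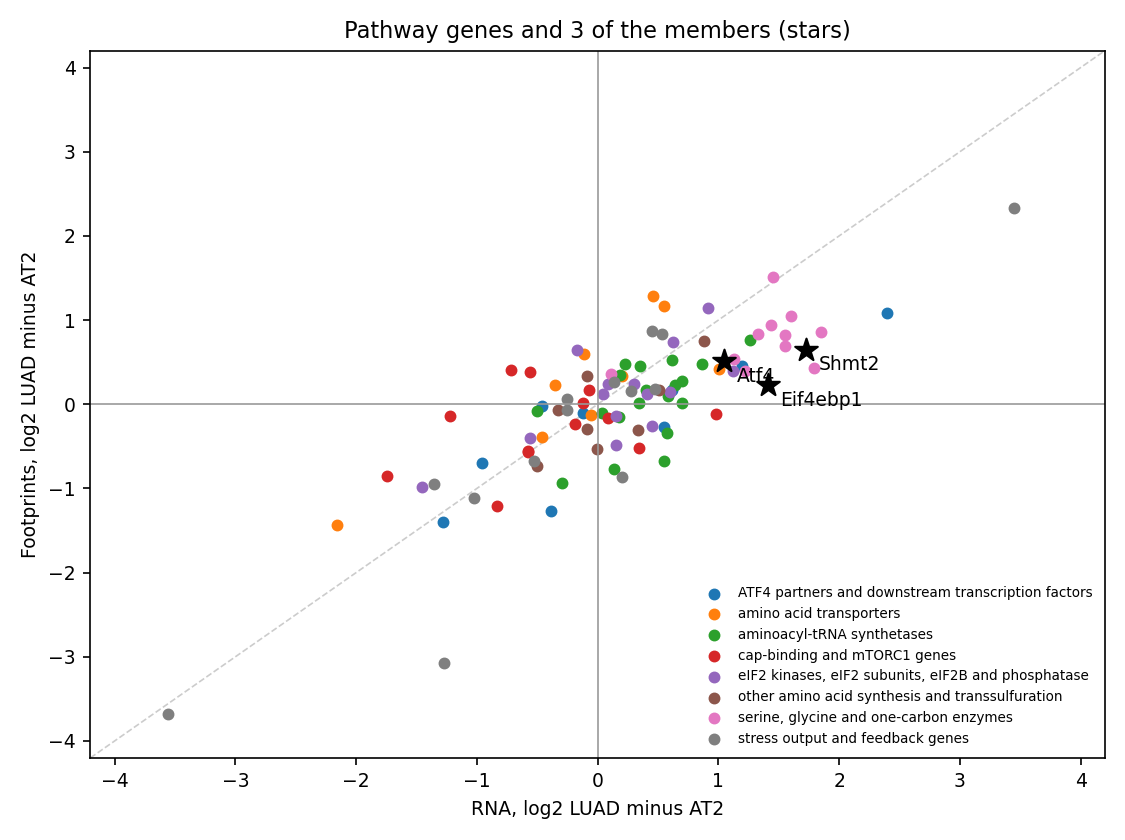
Log2 difference LUAD minus AT2 in footprints (vertical) against RNA (horizontal) for 97 of the 99 pathway genes tested in both assays (points, coloured by list) and for Atf4, Shmt2 and Eif4ebp1 (stars); the dashed line marks equal values. The 3 stars lie right of 0 and under the dashed line, and Aldh1l1 and Fosl1 lie outside the axes.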

How the data were processed

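For each footprint or RNA library the deposited table gives TPM and estimated counts by transcript, which the authors made with kallisto per the submitters' processing notes; its version, transcript release and build were not given in the sources used here, nor was the making of the RNA libraries. The deposited ORF lists, on mm10 per the submitters' processing notes, hold P-site counts by frame, an RPKM value and a p-value per ORF per the file headers, with none over 0.05. No source used here names the ORF caller.

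Only the ORF lists tie transcripts to genes, and they did so for 22509 of 118489 transcripts and 7266 genes, of which 4113 were in LUAD lists only, 554 in AT2 lists only and 2599 in lists of both kinds, so genes translated in LUAD are favoured. Of a library's counts 65.0% to 70.0% were paired. Counts were summed to genes and rounded, and the quasi-likelihood test of edgeR 4.0.16 (R 4.3.3) was run with filterByExpr, TMM and robust estimation, at an adjusted p under 0.05. SE is the log2 difference over the square root of F. DESeq2 1.42.0 on the counts and limma 3.58.1 on log2(TPM + 1), a pseudocount of 1, were alternatives.

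The members and gene lists were chosen with earlier results of these data known. Genes named beside the members were up to 3 per list, direction and assay with the smallest adjusted p plus a set of 12, and for likeness the 4 with the highest mean r. Deviations of AT2 and LUAD RNA libraries of one number had r = 0.24, 0.21 and 0.27, and libraries of different numbers were not compared. AT2 and LUAD RNA libraries of one number also fell in the same library set. Pairing by number was therefore not shown, and the labels do not give it. In footprints the values were 0.42, -0.34 and 0.34. Footprint and RNA libraries of one number had r = 0.51, 0.59, 0.55 and 0.58 in LUAD and 0.23, -0.2 and 0.22 in AT2. Those of different numbers were not compared there either. The lowest mean chi-square between replicates was 5.42, so no replicate was the same library counted again. LUAD libraries 1 and 2, and 3 and 4, were the closest in their group. Their values were 12.91 and 5.42 in footprints, against 74.83 to 114.55 across these pairs. In RNA they were 37.59 and 30.94, against 190.01 to 231.91. Whether such pairs come from one culture was not tested. Tested on simulated data in which 200 genes were changed, the footprint fit of 6735 genes found 11% of those changed 2-fold and 71% of those changed 4-fold, and the RNA fit of 6903 genes found 34% and 79%. The simulated ratio fit had 7032 genes.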

Additional observations from a re-analysis of the deposited data

How the results depend on the processing

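Of 216 alternative values for the 4 genes, 193 kept direction and side of the threshold, 9 passed anew, 9 no longer passed and 5 changed direction. The cause was not tested. Every alternative outside the library sets kept the RNA calls of Cth, Shmt2 and Eif4ebp1 and the footprint call of Cth. Atf4 RNA ran from 0.83 to 1.23 when a library was left out. The fitted Cth ratio was -8.23 to -7.52 there and -0.79 in limma on log2(TPM + 1), sizes set by how each fit treats 0 AT2 RNA counts and no measure of stability. Footprint set 1 and RNA set 2 hold 1 AT2 library each, so values within them are no test. Atf4 footprints were -0.65 within library set 1 and 1.31 within set 2. The Atf4 ratio was -1.17 and 0.01 there, 0.04 in limma and 0.03 without TMM. Shmt2 footprints were 0.86 with the set as a term, 1.05 within set 1 and 0.78 within set 2, and its ratio -1.13 within set 2. Eif4ebp1 footprints were 0.35 with the set as a term and -0.15 with protein-coding transcripts alone, and its ratio -0.83 with the set as a term and -1.15 within set 2. Of the named pathway genes, Eif2ak4 footprints reversed within set 1 (-0.11) and Ero1l footprints in limma (0.07). Library sets, protein-coding transcripts and the size without TMM were chosen after seeing the data.

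Over all genes, 934 passed in footprints with the replicate block, 2870 with the set as a term, 3571 within set 1 and 2855 within set 2, against 1448, and 841 to 1896 without a library. In RNA 4050 passed within set 1 against 2572, and 1628 to 3355 without a library. Footprints per RNA gave 375 in DESeq2, 9 in limma, 77 with the replicate block, 518 with the set as a term, 1010 and 696 within sets 1 and 2 and 23 without TMM, against 51, and 1 to 193 without a library. Of calls, 833 of 977 footprint genes and 9 of 9 ratios were higher in limma, and 842 of 1085 and 16 of 23 without TMM, with footprint medians of 0.606 and 0.467. With the replicate number as a block Atf4 RNA was 0.76 (edgeR adjusted p = 0.0379), and no call of the 4 genes changed in any comparison. In the RNA lists the block ended the calls of Asns and Gcn1 (0.0999 and 0.0748). In the ratio fit, with library number within tissue as the block, Eif4ebp1 was -1.06 and Shmt2 -0.95 (edgeR adjusted p = 0.0682 and 0.173). Of the 11 ORFs, 4 had an authors' p under 0.01 and 6 to 11 remained without a list; at that limit the upstream ORF of Atf4 leaves LUAD list 1, so its ratio had no value. Footprint counts of AT2, as low as 2 for Cth in 1 library, limit what the ratio can show.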
